A study of Mus musculus with 8 samples.

Results

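The chaperone and stress-sensing genes of the endoplasmic reticulum (ER) were followed in mouse embryonic stem cells with Rif1 knocked down by short hairpin RNA (shRNA). The 10 genes were Hspa5, Hsp90b1, Calr, Pdia3, Pdia4, Pdia6, Dnajb9, Sdf2l1, Xbp1 and Herpud1. Every probe set of the array annotated to such a gene symbol alone was taken, which gave 22 of 45101 probe sets for 10 of 10 genes. All 22 passed the filter on dim probe sets, which kept 31605. In the stable F1 knockdown 8 of the 10 genes rose at their brightest probe set, by 1.13-fold to 1.38-fold, while Xbp1 fell to 72.8% of its control level, where 16.0% of all genes were higher and 14.5% lower. Without F1 Rif1 shRNA array 1 fewer of the 8 genes passed, while the median log2 fold change of the 10 was 0.23, against 0.24 with all arrays. In J1 cells, 48 h after transfection, 0 of the 10 genes passed at their brightest probe set, and a second probe set of Herpud1 rose 1.41-fold.

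Proteins that enter the ER are folded by chaperones and by disulfide isomerases, and unfolded chains are returned to the cytosol for degradation. When unfolded chains build up, the sensors IRE1, ATF6 and PERK start the unfolded protein response (UPR), in which XBP1 and ATF6 raise chaperone genes and ATF4 raises CHOP. Embryonic stem cells secrete matrix and growth factors through this route, as do the fibroblasts used as feeder cells.

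The data are 8 Affymetrix mouse expression arrays, 2 in each of 4 groups. J1 cells (background strain 129S4/SvJae) received Rif1 shRNA or control shRNA by lipofection and were collected 48 h later. F1 cells (background C57BL/6xC3H) were collected at passage 16, carrying Rif1 shRNA or control shRNA. The F1 control arrays are labelled control shRNA under transfection but also bear the name of the stable Rif1 knockdown line under cell line. All cells grew on feeder plates, and a treatment note common to all arrays speaks of virus or siRNA in place of shRNA. Line, strain and time in culture differ together between J1 and F1, so they cannot be told apart. The labels do not say that the 2 arrays of a group came from separate cultures, so the p-values reflect array-to-array spread alone, possibly technical. The median deposited signal of an array was 61.0 to 69.3, and replicates correlated at 0.991 to 0.997.

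The promoters show which of these genes carry the ER stress response element (ERSE), to which ATF6 and XBP1 are known to bind together with the CCAAT-binding factor NF-Y. RefSeq windows of 300 bases (GRCm38.p6, 250 before and 50 after the annotated start) were searched on both strands. The ERSE letters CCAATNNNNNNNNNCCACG occurred in 39 of 32851 windows (0.119%) and in 4 of the 10 genes, with a pair of matches in Hsp90b1. ERSE-II, in which ATTGG and CCACG lie 1 base apart, occurred in 12 windows (0.037%), among them that of Herpud1. The shorter form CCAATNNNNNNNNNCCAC, which every ERSE match also holds, occurred in 0.365% of windows and in 7 of the 10 genes. The stretches are printed 5′ to 3′ on the strand of the gene, with capitals on the matched boxes, which appear as their reverse complement where the match lies on the opposite strand.
Hspa5, chr2:34772005-34772063, plus strand, 1 ERSE: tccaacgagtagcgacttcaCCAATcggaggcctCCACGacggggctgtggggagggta
Hsp90b1, chr10:86705513-86705676, minus strand, 2 ERSE: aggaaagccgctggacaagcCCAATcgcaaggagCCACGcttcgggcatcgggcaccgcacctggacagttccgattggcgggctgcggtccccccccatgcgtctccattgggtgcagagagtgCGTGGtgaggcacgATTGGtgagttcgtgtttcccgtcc
Calr, chr8:84847055-84847113, minus strand, 1 ERSE: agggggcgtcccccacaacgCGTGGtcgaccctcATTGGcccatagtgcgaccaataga
Pdia6, chr12:17266471-17266529, plus strand, 1 ERSE: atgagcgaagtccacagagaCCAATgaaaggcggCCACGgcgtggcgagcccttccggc
Herpud1, chr8:94386357-94386407, plus strand, 1 ERSE-II: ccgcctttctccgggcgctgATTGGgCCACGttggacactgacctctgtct
Pdia3, chr2:121413853-121413910, plus strand, shorter form: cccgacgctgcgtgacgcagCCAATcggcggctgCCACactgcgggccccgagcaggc
Pdia4, chr6:47813582-47813639, minus strand, shorter form: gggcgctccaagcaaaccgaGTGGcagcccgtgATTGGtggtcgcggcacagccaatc
Herpud1 also holds the shorter form. The windows of Dnajb9 (gene at chr12:44205897-44210068), Sdf2l1 (gene at chr16:17130138-17132383) and Xbp1 (gene at chr11:5520641-5525993) held none of these 3 forms, and none of the 10 held the core TGACGTGG of the UPR element, which 0.676% of all windows hold. CCAAT alone was found in 9 of the 10 genes and 37.4% of all windows, and CCACG alone in 8 of the 10 and 32.8%. A match describes letters in a window and is not evidence of binding.

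**Figure D1:**
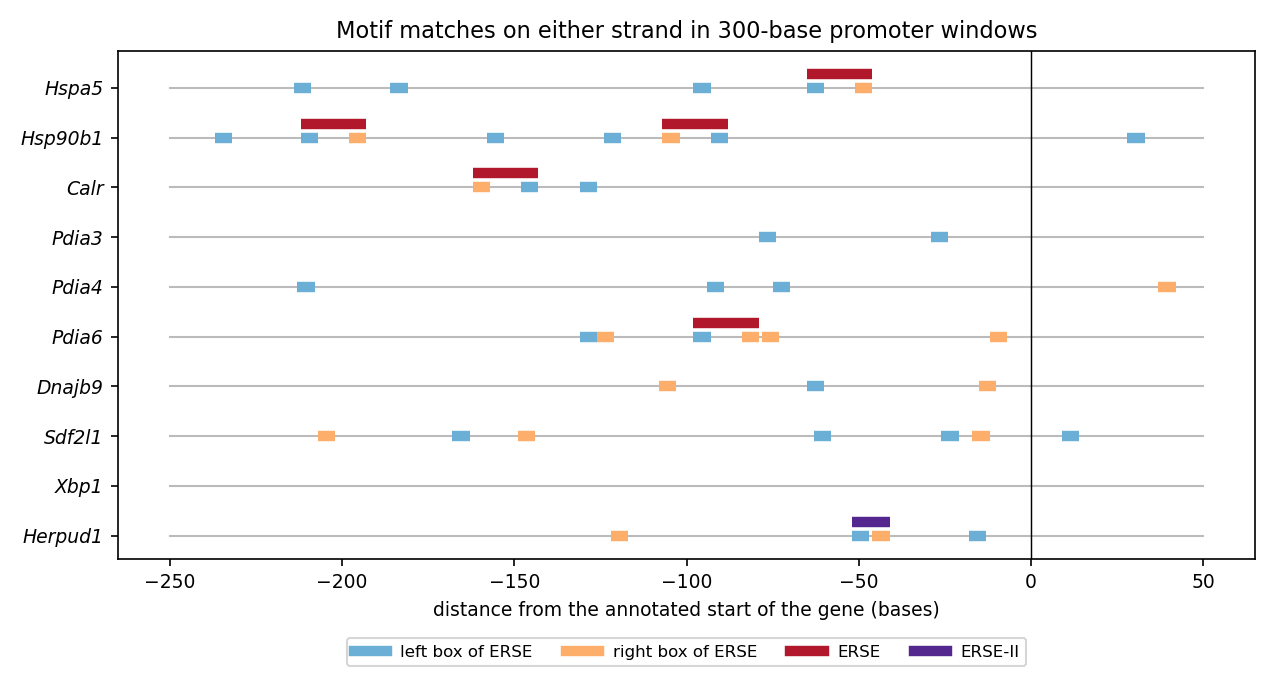
Matches of the left box of ERSE (CCAAT), its right box, whole ERSE and ERSE-II on either strand in the 300-base promoter windows of the 10 genes, by distance from the annotated start in bases (vertical line at 0). Hspa5, Calr and Pdia6 have 1 ERSE, Hsp90b1 has 2, Herpud1 has an ERSE-II, and the Xbp1 line is empty.

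Rif1 itself was lower on every knockdown array. Its brightest probe set, 1429491_s_at, had a deposited signal of 1260 and 1297 in J1 Rif1 shRNA cells, against 2614 and 3222 in J1 controls. In F1 it had 1339 and 1407 in Rif1 shRNA cells, against 4231 and 4247 in controls. These correspond to 47.2% of control in J1 (limma adjusted p = 0.000124) and 29.9% in F1 (limma adjusted p = 2.39e-06), and the other 3 Rif1 probe sets also passed in both lines.

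Because the scale of the deposited signal differed between the lines, fold changes were computed on quantile-normalized log2(signal + 18) values, within each line, with limma. Passing means an adjusted p under 0.05 (Benjamini-Hochberg over all 31605 probe sets). In J1, 1 of the 22 probe sets passed, and it was higher, where 0.804% of all probe sets passed (0.456% higher and 0.348% lower). At an unadjusted p under 0.05, 9 of the 22 passed in J1, where 3406 of all 31605 probe sets did. In F1, 15 of the 22 passed, 12 higher and 3 lower, where 25.8% of all probe sets passed (13.1% higher and 12.7% lower). That background was 4126 probe sets higher and 4014 lower, and 4875 higher and 3128 lower on the values as deposited. The median log2 fold change of the 22 was 0.12 in J1 and 0.18 in F1, where all probe sets had -0.0013 and -0.03.

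Taking each gene at its brightest probe set, 0 of 10 passed in J1 with limma, where 0.584% of all genes were higher and 0.449% lower. At an unadjusted p under 0.05 the number was 5 of the 10, where 1824 of all 14714 genes passed. In F1, 8 genes were higher and Xbp1 was lower, where 16.0% of all genes were higher and 14.5% lower. Herpud1 did not pass in F1. Markers of feeder fibroblasts were higher in F1 Rif1 shRNA cells too (21 of 22, median log2 fold change 1.22), and their part in these counts was not tested. In bulk RNA fewer or more cells of a type and less or more RNA per cell cannot be told apart. Without array 1 or array 2 of the F1 Rif1 shRNA group, which leaves 1 array in that group, fewer of the 10 genes passed. Calls over all probe sets also fell without array 1. The median log2 fold change of the 10 genes in F1 was 0.23 without array 1 and 0.26 without array 2, against 0.24 with all arrays.

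**Figure D2:**
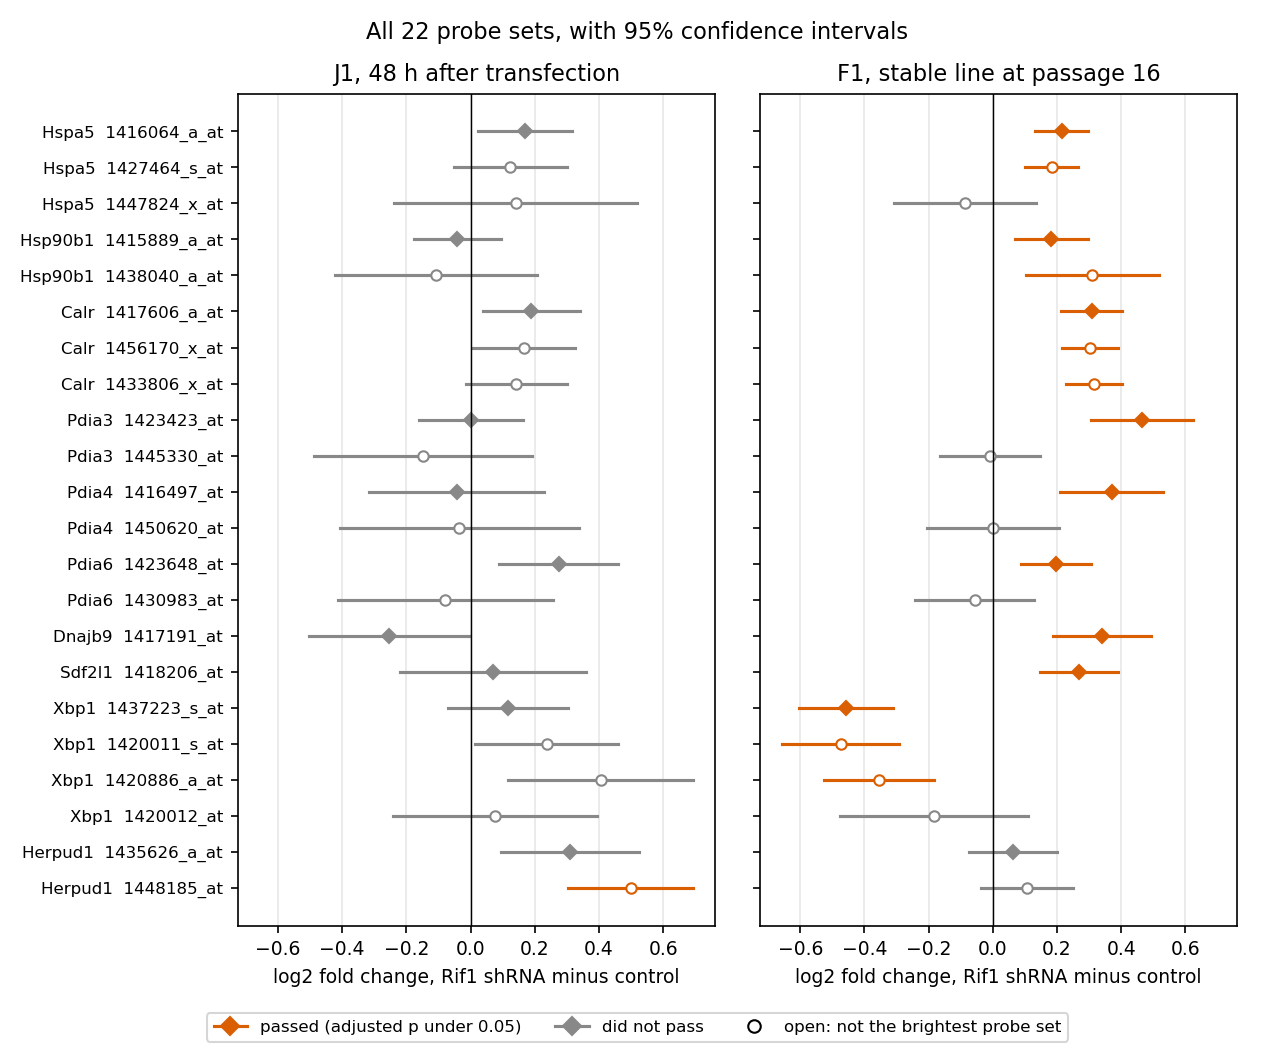
Log2 fold change (Rif1 shRNA minus control) of each of the 22 probe sets with its 95% confidence interval, in J1 (left) and F1 (right); filled diamonds are the brightest probe set of a gene and orange marks those that passed. In F1 the 12 higher probe sets lie between 0.18 and 0.47 and the 3 lower ones, all of Xbp1, between -0.47 and -0.35.

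Hspa5, the ER member of the Hsp70 family (BiP) and the chaperone that keeps the UPR sensors inactive, rose with the F1 knockdown. Probe set 1416064_a_at had a deposited signal of 8798 and 8697 in F1 Rif1 shRNA cells, against 7507 and 7863 in F1 controls. Both knockdown arrays lay above both controls. This 1.16-fold rise (log2 0.21, SE 0.04) passed with a limma adjusted p = 0.00469. In J1 the signal was 3000 and 3273 in Rif1 shRNA cells, against 2686 and 2878 in controls. The J1 arrays did not overlap either, but the log2 fold change of 0.17 did not pass (SE 0.07, limma adjusted p = 0.365). The difference between the lines was 0.05 (95% interval -0.12 to 0.21). Probe set 1427464_s_at also rose in F1 (0.18, limma adjusted p = 0.00875), with 0.12 in J1 (limma adjusted p = 0.665). The third probe set, 1447824_x_at, had -0.09 in F1 and 0.14 in J1 (limma adjusted p = 0.550 and 0.855). Suffixes s_at and x_at mark probe sets whose probes can also match other transcripts. With all 3 probe sets of Hspa5 averaged, the F1 log2 fold change was 0.10 (limma adjusted p = 0.0965), so the call rests on the other pair. With no intensity trend in the variance it was 0.21 (limma adjusted p = 0.0573).

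Hsp90b1, which encodes the ER paralogue of Hsp90 (GRP94), had 5863 and 5927 at probe set 1415889_a_at in F1 Rif1 shRNA cells, against 5504 and 5137 in F1 controls. The knockdown arrays were the higher ones, and the rise was 1.13-fold (log2 0.18, SE 0.05, limma adjusted p = 0.0307). Its J1 signal was 3179 and 2989 in Rif1 shRNA cells, against 3084 and 3258 in controls. Those arrays overlapped, and the log2 fold change was -0.04 (limma adjusted p = 0.885). The F1 call was lost without F1 Rif1 shRNA array 1, F1 Rif1 shRNA array 2 or F1 control array 2 (limma adjusted p = 0.0998, 0.109 and 0.0506). It was also lost with 1 spread for both lines and with no intensity trend (0.0503 and 0.120). Probe set 1438040_a_at had 0.31 in F1 (limma adjusted p = 0.0397) and -0.11 in J1 (limma adjusted p = 0.866). Hsp90b1 thus had the smallest rise of the 8 genes at the brightest probe set.

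Calr encodes calreticulin, the soluble lectin chaperone that holds glycoproteins during folding. At 1417606_a_at it had 4375 and 4452 in F1 Rif1 shRNA cells, against 3675 and 3526 in F1 controls. The groups were well apart relative to the spread within them, and the rise was 1.24-fold (log2 0.31, SE 0.04, limma adjusted p = 0.00178). All 3 Calr probe sets rose in F1, the others by 0.30 and 0.31 on the log2 scale (limma adjusted p = 0.00135 and 0.00117). In J1 the signal was 2031 and 2114 in Rif1 shRNA cells, against 1860 and 1740 in controls. The J1 log2 fold change of 0.19 did not pass (SE 0.07, limma adjusted p = 0.307), although the arrays did not overlap. Of the 10 genes, Calr, Pdia3 and Xbp1 kept their F1 call at the brightest probe set in all 18 alternatives run. For Calr the difference between the lines was 0.12 (95% interval -0.05 to 0.29).

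Pdia3 encodes ERp57, the disulfide isomerase that works with calreticulin and calnexin on glycoproteins. At 1423423_at it had 5027 and 4405 in F1 Rif1 shRNA cells, against 3593 and 3301 in F1 controls. Array 1 of the knockdown stood highest, and both knockdown arrays lay above the controls. Its rise of 1.38-fold was the largest of the 10 genes in F1 at the brightest probe set (log2 0.47, SE 0.07, limma adjusted p = 0.00269). With both Pdia3 probe sets averaged it was 0.23 (limma adjusted p = 0.0128), below Calr (0.31) and Dnajb9 (0.34), and the difference between the lines was 0.30 and did not pass (limma adjusted p = 0.0866). The J1 signal was 1334 and 1292 in Rif1 shRNA cells, against 1274 and 1348 in controls. The J1 arrays overlapped, with a log2 fold change of 0.00 (95% interval -0.16 to 0.16). Its other probe set, 1445330_at, did not pass in either line (-0.01 in F1 and -0.15 in J1, limma adjusted p = 0.938 and 0.822).

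Pdia4 encodes ERp72, another disulfide isomerase with several thioredoxin-like domains. At 1416497_at it had 1181 and 1086 in F1 Rif1 shRNA cells, against 883 and 808 in F1 controls. The knockdown arrays were the higher ones, by 1.29-fold (log2 0.37, SE 0.07, limma adjusted p = 0.00761, and 0.0547 without F1 Rif1 shRNA array 1). With both Pdia4 probe sets averaged it was 0.18 (limma adjusted p = 0.0477). The values in J1 were 354 and 296 in Rif1 shRNA cells, against 318 and 357 in controls. These overlapped (log2 -0.04, 95% interval -0.31 to 0.23). The difference between the lines was 0.41 (SE 0.14) and did not pass (limma adjusted p = 0.110), though without J1 Rif1 shRNA array 1 it did (0.55, limma adjusted p = 0.0243). The other Pdia4 probe set, 1450620_at, had values of -0.00050 in F1 and -0.04 in J1.

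Pdia6 encodes P5, a disulfide isomerase that associates with BiP. At 1423648_at it had 2620 and 2602 in F1 Rif1 shRNA cells, against 2359 and 2174 in F1 controls. The rise was 1.15-fold (log2 0.20, SE 0.05, limma adjusted p = 0.0204). It did not pass without F1 Rif1 shRNA array 1 or array 2 (limma adjusted p = 0.119 and 0.0863), with no intensity trend (0.0804) or with both probe sets averaged (0.07 on the log2 scale, 0.284). In J1 it had 878 and 847 in Rif1 shRNA cells, against 701 and 733 in controls. Here the J1 arrays were apart by 1.21-fold, but the value did not pass (log2 0.27, SE 0.09, limma adjusted p = 0.205). With 1 spread for both lines it did (limma adjusted p = 0.0349). The difference between the lines was -0.08 (95% interval -0.26 to 0.11), and 1430983_at passed in neither line (-0.06 in F1 and -0.08 in J1).

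Dnajb9 encodes ERdj4, a J-domain cochaperone of BiP known to restrain IRE1. It had 939 and 904 in F1 Rif1 shRNA cells, against 733 and 662 in F1 controls. The F1 knockdown arrays lay above the controls by 1.27-fold (log2 0.34, SE 0.06, limma adjusted p = 0.00848, and 0.0572 without F1 Rif1 shRNA array 1). In J1 it had 288 and 270 in Rif1 shRNA cells, against 322 and 349 in controls. There the knockdown arrays were the lower ones, with a log2 fold change of -0.25 that did not pass (SE 0.11, limma adjusted p = 0.453).

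Sdf2l1 encodes a cochaperone that acts with BiP and J-domain proteins. It had 826 and 800 in F1 Rif1 shRNA cells, against 643 and 653 in F1 controls. The rise was 1.20-fold (log2 0.27, SE 0.05, limma adjusted p = 0.00899). It did not pass without F1 Rif1 shRNA array 1 (limma adjusted p = 0.0869) or with 1 spread for both lines (0.159). Its signal in J1 was 397 and 514 in Rif1 shRNA cells, against 467 and 411 in controls. The knockdown arrays spanned both controls, and the log2 fold change of 0.07 had a 95% interval of -0.22 to 0.36.

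Xbp1 encodes the transcription factor whose mRNA is spliced by IRE1 in the UPR. Each probe set gives 1 value for all forms of the mRNA, and splicing was not analysed here. At 1437223_s_at it had 1055 and 1044 in F1 Rif1 shRNA cells, against 1488 and 1325 in F1 controls. Both knockdown arrays lay below both controls, with a log2 fold change of -0.46 (SE 0.06, limma adjusted p = 0.00212). In J1 it had 1541 and 1835 in Rif1 shRNA cells, against 1506 and 1588 in controls. The J1 arrays overlapped (log2 0.12, limma adjusted p = 0.712). In F1, 3 of the 4 Xbp1 probe sets fell: besides the brightest, 1420011_s_at had -0.47 and 1420886_a_at had -0.35 (limma adjusted p = 0.00465 and 0.0118). The call for 1420886_a_at was lost without F1 Rif1 shRNA array 1 (limma adjusted p = 0.0661) and with 1 spread for both lines (0.0894). The same 2 had 0.24 and 0.41 in J1 and did not pass (limma adjusted p = 0.421 and 0.229); without J1 Rif1 shRNA array 1 1420886_a_at had 0.59 (limma adjusted p = 0.00596). The fourth, 1420012_at, was dim, with deposited signals of 45.9 to 83.9 on the 8 arrays, and had -0.18 in F1 and 0.08 in J1 (limma adjusted p = 0.332 and 0.912).

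Herpud1 encodes a membrane protein of the ER degradation complex and is a known target of the UPR. At 1435626_a_at it had 817 and 716 in J1 Rif1 shRNA cells, against 596 and 643 in J1 controls. The knockdown arrays were the higher ones, but the log2 fold change of 0.31 did not pass (SE 0.10, limma adjusted p = 0.219). Without J1 Rif1 shRNA array 2 it was 0.41 and passed (limma adjusted p = 0.0434). At 1448185_at it had 783 and 780 in J1 Rif1 shRNA cells, against 539 and 573 in J1 controls. This was the only one of the 22 probe sets to pass in J1, at 1.41-fold (log2 0.50, SE 0.09, limma adjusted p = 0.0275). It did not pass without J1 control array 1 or array 2 (limma adjusted p = 0.113 and 0.0557) or with no intensity trend (0.283). In F1 the brightest probe set had 388 and 385 in Rif1 shRNA cells, against 350 and 346 in controls. Neither Herpud1 probe set passed in F1 (log2 0.06 and 0.11, limma adjusted p = 0.471 and 0.249).

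**Figure D3:**
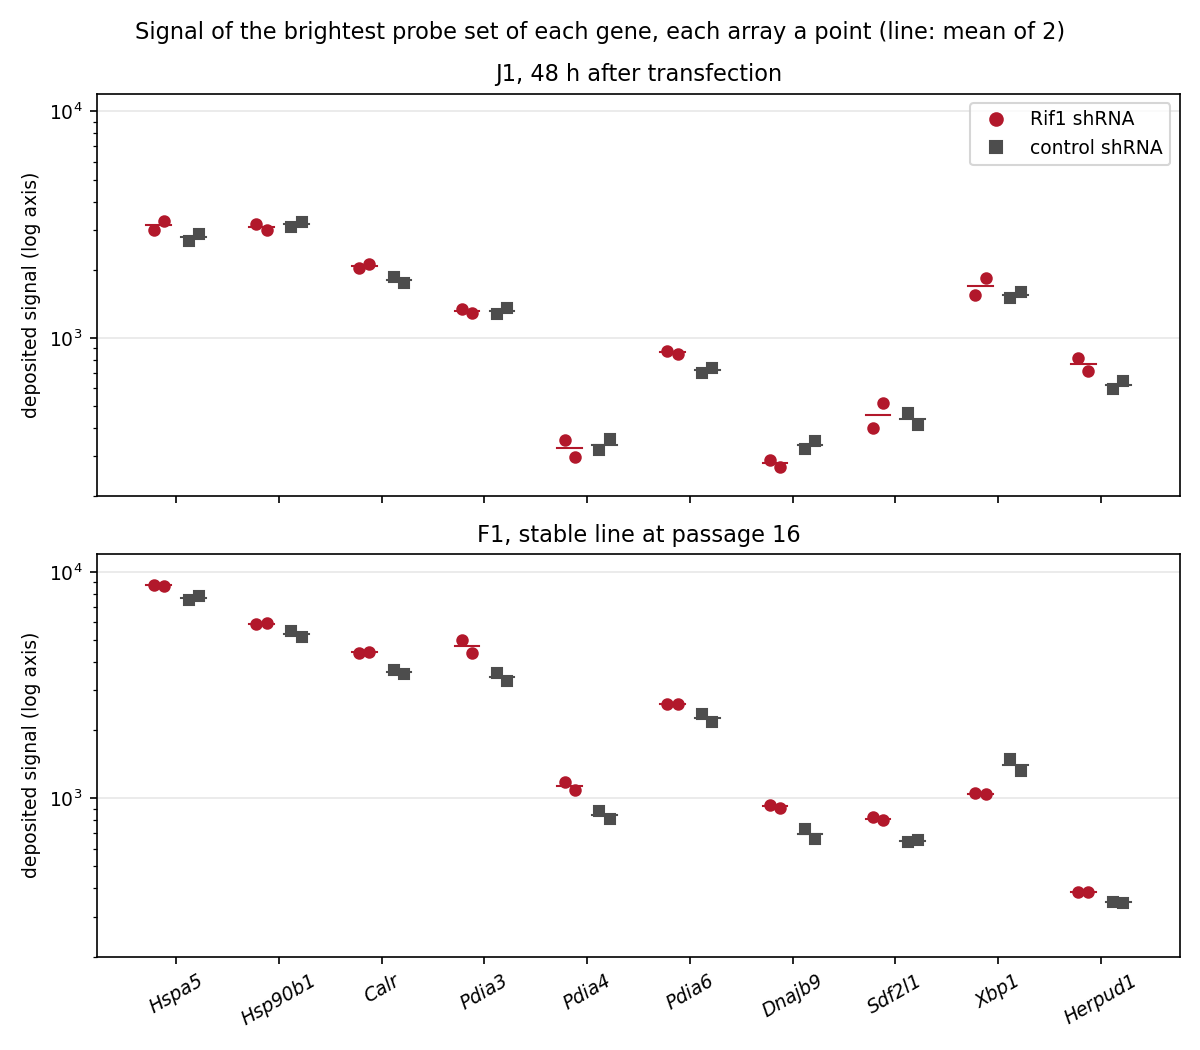
Deposited signal (log axis) of the brightest probe set of each gene on each array, J1 above and F1 below, with Rif1 shRNA arrays (red circles) left of control arrays (dark squares) and a line at the mean of 2. In F1 both red points lie above both squares for every gene except Xbp1, where they lie below. Herpud1 is among the former but did not pass, and the share of all genes so separated was not counted. The scale of the deposited signal differs between the panels and between probe sets, so only points of 1 gene within 1 panel are comparable.

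The test of the difference between the lines (F1 effect minus J1 effect, all 8 arrays) passed for 6 of the 22 probe sets. Of these 2 were higher and 4 lower, where 8.33% of all probe sets passed (4.98% higher and 3.35% lower). At the brightest probe set 3 of the 10 genes passed, where 10.6% of all genes did (6.24% higher). Pdia3 1423423_at differed by 0.46 (SE 0.10, limma adjusted p = 0.014) and Dnajb9 1417191_at by 0.59 (SE 0.12, limma adjusted p = 0.0105). For Dnajb9 the effects ran in opposite directions, 0.34 in F1 and -0.25 in J1. The 3 brighter Xbp1 probe sets differed by -0.57, -0.71 and -0.76 (limma adjusted p = 0.012, 0.0102 and 0.0237), with negative effects in F1 and positive ones in J1. Herpud1 1448185_at differed by -0.39 (SE 0.10, limma adjusted p = 0.039), with 0.11 in F1 and 0.50 in J1. Without F1 Rif1 shRNA array 1 the count was 0 of 22, and without array 2 it was 2. Without F1 control array 1 or 2 it was 3, and with no intensity trend it was 2. For Hsp90b1, Pdia4, Sdf2l1, Calr, Hspa5, Pdia6 and Herpud1 at their brightest probe sets the difference did not pass. This does not show that the lines responded alike. At the brightest Herpud1 probe set it was -0.25 (limma adjusted p = 0.255). The call at Herpud1 1448185_at was lost in 10 of 17 alternatives, and that at Xbp1 1420886_a_at in 6 of 17. The other calls were lost in 1 to 5 of the alternatives run for them.

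**Figure D4:**
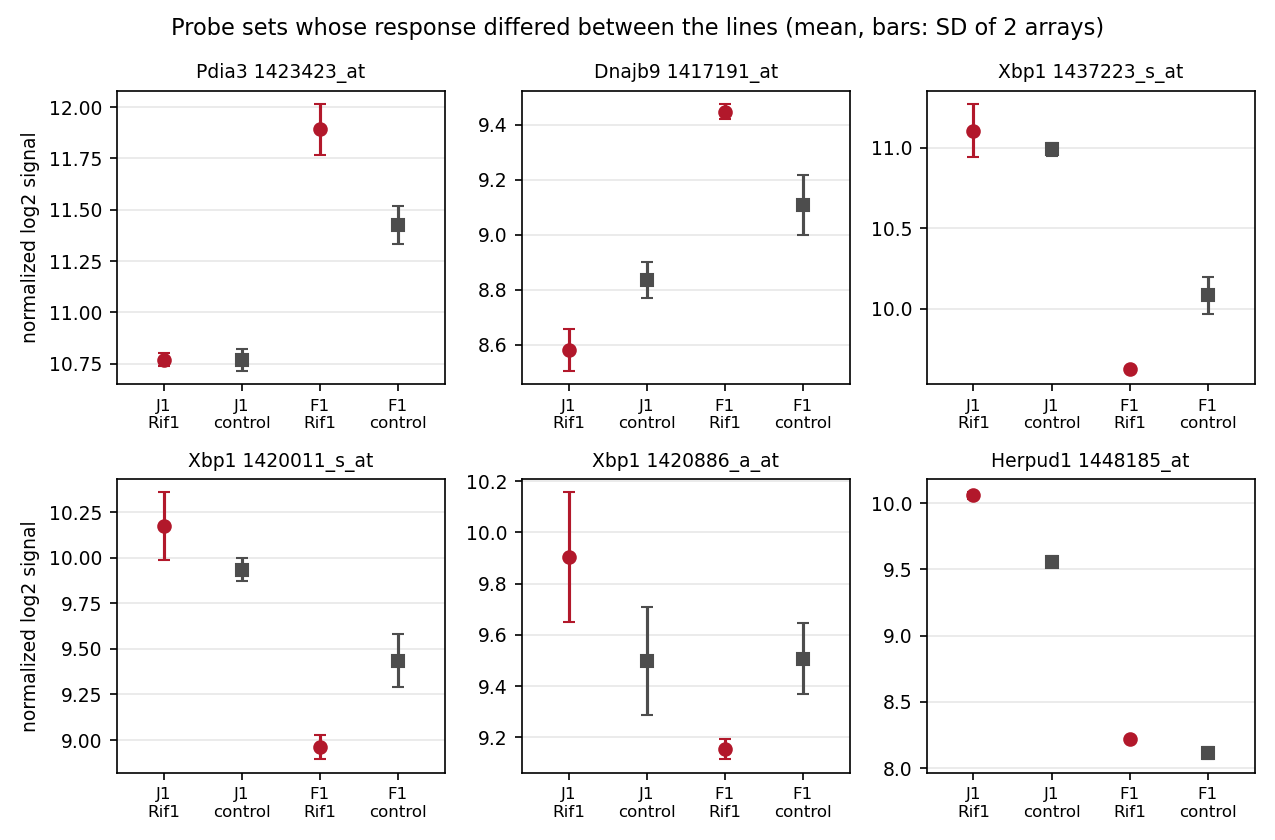
Mean normalized log2 signal with the SD of 2 arrays (smaller than the symbol where no bar is seen) for the 6 probe sets that passed the test of the difference, with Rif1 shRNA (circles) left of control (squares) in J1 and in F1; each panel has its own axis. For Xbp1 the circle lies above the square in J1 and below it in F1, and for Dnajb9 the reverse.

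After normalization, at the brightest probe set, 7 of the 10 genes were higher on all F1 arrays than on all J1 arrays. Xbp1 and Herpud1 were higher on all J1 arrays, and the lines overlapped for Sdf2l1. The share of all genes so separated was not counted. Other probe sets were mixed. Hspa5 1427464_s_at was also higher in F1. Hspa5 1447824_x_at averaged 9.11 and 8.97 in J1 Rif1 shRNA and control cells, against 7.81 and 7.89 in F1. Pdia4 1450620_at was higher in J1 too. The actin ratio given below also differed between the lines, and its part was not tested. At 1416064_a_at Hspa5 averaged 12.94 ± 0.02 in F1 Rif1 shRNA cells, 12.72 ± 0.05 in F1 controls, 11.92 ± 0.09 in J1 Rif1 shRNA cells and 11.76 ± 0.07 in J1 controls (normalized log2 signal, SD, n = 2). Its 4 groups did not overlap at any step of this order. Xbp1 ran the other way between the lines, at 9.63 ± 0.01 in F1 Rif1 shRNA cells, 10.08 ± 0.12 in F1 controls, 11.11 ± 0.17 in J1 Rif1 shRNA cells and 10.99 ± 0.04 in J1 controls. Its J1 groups were not apart beyond their spread. Herpud1 averaged 8.28 ± 0.01 in F1 Rif1 shRNA cells, 8.22 ± 0.03 in F1 controls, 10.03 ± 0.15 in J1 Rif1 shRNA cells and 9.72 ± 0.06 in J1 controls. The J1 groups of Hsp90b1, Pdia3, Pdia4 and Sdf2l1 also lay within their spread, and no test was made between the lines' levels.

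Further lists cover genes that work beside the 10. Of 23 other ER chaperones and folding enzymes, 14 rose and 2 fell in F1 and 0 passed in J1. In F1, 16.0% of all genes were higher and 14.5% lower. The median log2 fold change of the list was 0.21 in F1 and 0.09 in J1, against -0.02 and 0.01 over all genes. Prdx4, an ER peroxiredoxin, rose by 0.53, P4hb, the founding disulfide isomerase, by 0.33 and Creld2, an ER stress-induced isomerase, by 0.39 on the log2 scale (limma adjusted p = 0.000839, 0.000886 and 0.00113). Cnpy2 and Sil1, whose product is an exchange factor of BiP, fell by 0.19 and 0.25 (limma adjusted p = 0.0113 and 0.0313). Without F1 Rif1 shRNA array 1 the list had 7 higher and 0 lower, and without array 2 it had 10 higher and 0 lower. Of this list the difference between the lines passed for Prdx4 and Manf, that is 2 of 23. Over all genes 10.6% passed that test, with 6.24% higher. Fewer of the list passed it without F1 Rif1 shRNA array 1.

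Of 18 measured genes of ER-associated degradation, 11 rose and 1 fell in F1 (median 0.24) and 0 passed in J1 (median -0.03). In F1, 16.0% of all genes were higher and 14.5% lower. Sel1l and Syvn1, which form the core ubiquitin ligase complex, rose by 0.55 and 0.56, and Selenos by 0.45 (limma adjusted p = 0.00055, 0.000657 and 0.000449). The ubiquitin ligase Rnf5 fell by 0.49 (limma adjusted p = 0.001). Nploc4, Vcp, Sel1l and Derl1 differed between the lines in the higher direction and Rnf5 in the lower. Over all genes 10.6% passed that test, with 6.24% higher. Of 20 measured genes of translocation and signal peptide processing, 13 rose and 1 fell in F1 (median 0.21) and 0 passed in J1 (median 0.08). The translocon gene Sec61a1 rose by 0.26 and Tram1 by 0.47, while Ssr2, of the translocon-associated complex, fell by 0.32 (limma adjusted p = 0.00421, 0.000326 and 0.00242). The differences of Tram1, Spcs1 and Sec62 passed. Without F1 Rif1 shRNA array 1 each list had 5 higher and 1 lower in F1, and without array 2 degradation had 5 higher and translocation 7, with 1 lower in each. The differences of degradation genes were 2 higher without F1 Rif1 shRNA array 1, without either F1 control array or with no trend, 1 without F1 Rif1 shRNA array 2 and 8 on the values as deposited. Those of translocation genes were 1 without F1 Rif1 shRNA array 1 or 2, without F1 control array 1 or with no trend, and 2 without F1 control array 2 or either J1 control array.

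Among 10 sensors and processing proteases of the UPR, Creb3, Rtcb and Mbtps1 rose in F1 and Mbtps2 fell, where 16.0% of all genes were higher and 14.5% lower, and 0 passed in J1. Creb3, a membrane-bound transcription factor, rose by 0.50, the Xbp1 mRNA ligase gene Rtcb by 0.29 and the protease gene Mbtps1 by 0.15, while Mbtps2, whose protease completes ATF6 cleavage, fell by 0.53 (limma adjusted p = 0.00161, 0.00164, 0.0392 and 0.000408). The difference passed for Rtcb (0.27, limma adjusted p = 0.0292), that is 1 of 10, where 10.6% of all genes passed. This call was lost with no intensity trend. It was also lost without any of the F1 arrays or J1 control arrays in turn. The PERK and ATF4 branch was mixed. Of 13 genes 3 rose and 7 fell in F1 (median -0.17), and 2 rose and 0 fell in J1 (median 0.16). In J1, 0.584% of all genes were higher. Ddit3, which encodes CHOP, had 782 and 653 in F1 Rif1 shRNA cells, against 471 and 537 in F1 controls. J1 values were 1018 and 926 in Rif1 shRNA cells, against 677 and 649 in controls. It thus rose in both lines, by 0.42 in F1 and 0.55 in J1 (limma adjusted p = 0.0143 and 0.018). Nupr1, a stress-induced chromatin protein gene, fell by 1.08 in F1, yet had a rise of 0.34 in J1 (limma adjusted p = 0.000117 and 0.0407). Atf3 rose by 1.19 in F1, Ppp1r15a by 0.43, and Trib3 fell by 0.53 (limma adjusted p = 0.00328, 0.00348 and 0.00306). Differences passed for Atf3 and Ppp1r15a in the higher direction and for Nupr1, Chac1, Trib3 and Atf4 in the lower. Without J1 control array 2 no gene of this branch passed in J1, without J1 control array 1 it was 1 gene, and without F1 Rif1 shRNA array 1 the branch had 2 higher and 3 lower in F1. With no intensity trend 0 genes of this branch passed in J1, Ddit3 included, and on the values as deposited 1 gene did. The differences of this branch numbered 0 higher and 2 lower with no intensity trend. They were 0 higher and 4 lower with arrays weighted by the spread of their line. Fewer higher differences passed when any array other than J1 Rif1 shRNA array 1 was left out.

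For chaperones of the cytosol and mitochondria the median was -0.01 in F1 (0.02 on the values as deposited) and -0.05 in J1, with 5 of 21 higher and 3 lower in F1, near the 16.0% and 14.5% of all genes. Hspa1b and Hspa1a, the stress-induced Hsp70 genes, rose by 1.23 and 0.89, Hspb1 by 0.32, Dnajb1 by 0.32 and Dnaja1 by 0.14 in F1 (limma adjusted p from 1.37e-05 to 0.017). Cct4, Tcp1 and Hspa9 fell, by 0.18, 0.12 and 0.13. In J1 only Hspb1 passed, lower by 0.30 on the log2 scale (log2 -0.30, limma adjusted p = 0.0304), and it did not without J1 control array 2. Differences passed for Hspb1, Hspa1b and Dnajb1 (higher) and Hspa9 (lower), that is 4 of 21, where 10.6% of all genes passed. Without F1 Rif1 shRNA array 1 this list had 4 higher and 0 lower in F1.

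**Figure D5:**
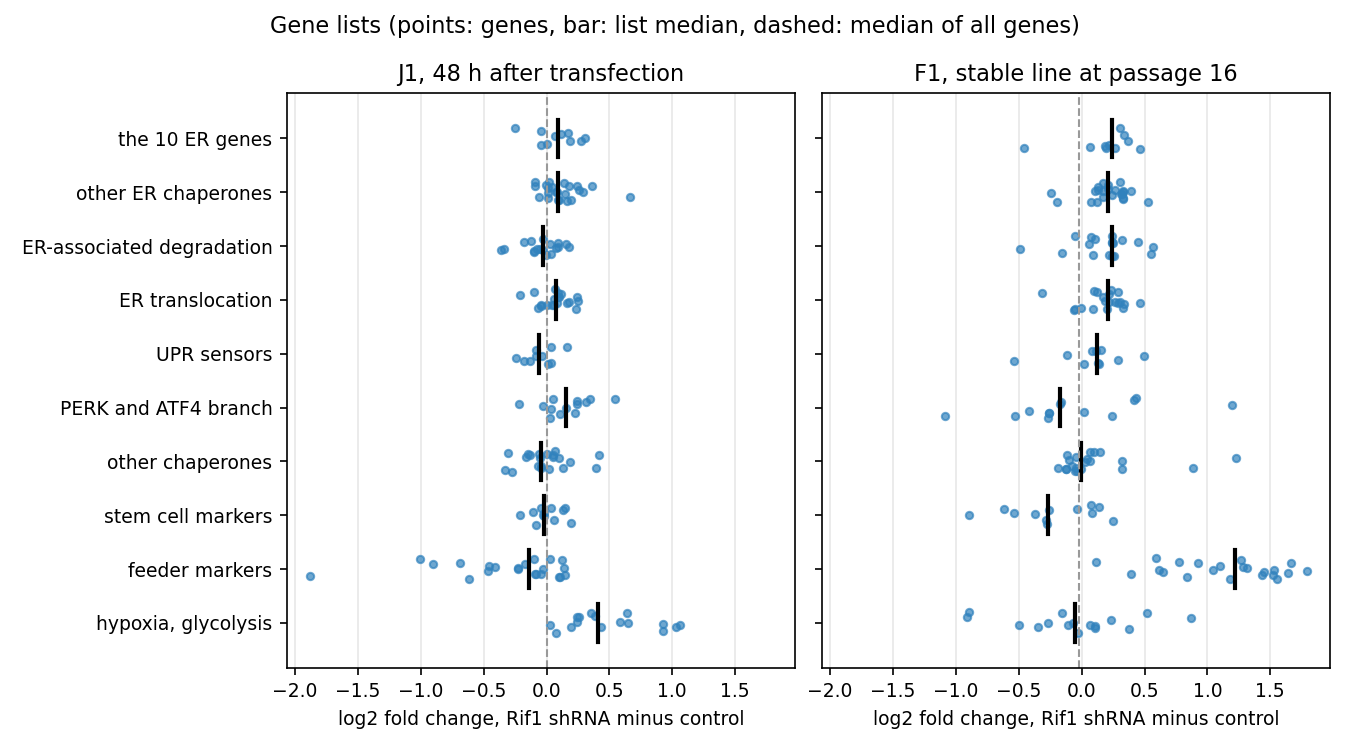
Log2 fold change (Rif1 shRNA minus control) of each gene at its brightest probe set, by list, in J1 (left) and F1 (right), with a bar at the list median and a dashed line at the median of all genes. In F1 the medians of the 10 ER genes, other ER chaperones, ER-associated degradation and translocation lie at 0.21 to 0.24, the PERK and ATF4 branch at -0.17, and feeder markers at 1.22.

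In F1 Rif1 shRNA cells, where 16.0% of all genes were higher and 14.5% lower, markers of feeder fibroblasts also shifted. Of the 22 measured, 21 were higher and 0 lower (median log2 fold change 1.22). Their summed deposited signal was 48992 and 47706 in F1 Rif1 shRNA cells, against 24753 and 24641 in F1 controls. The 22 are those kept by the filter on dim probe sets, and no detection call was used. Anxa1, Col5a2 and Tagln led, with 1.79, 1.64 and 1.55. Of the stem cell markers, 2 of 12 rose in F1 (Tdgf1 and Nanog), near the share of all genes. Another 7 fell (median of the 12 -0.27), led by Esrrb, Fgf4 and Tcl1 with -0.54, -0.62 and -0.90. The 2 that rose became 4 without F1 control array 2 and 1 without any other F1 array. The summed signal of these markers was 62016 and 60100 in Rif1 shRNA cells, against 62615 and 64680 in controls.

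In J1, 5 of 22 feeder markers fell (Acta2, Tagln, Ccn2, Col5a2 and Ccn1, log2 -1.88 to -0.46) and 0 rose, with sums of 16935 and 16775 in Rif1 shRNA cells, against 19780 and 18553 in controls. The 5 became 8 without J1 Rif1 shRNA array 1 and 2 without J1 control array 1. No stem cell marker passed in J1 with limma, where 0.584% of all genes were higher and 0.449% lower. Genes of hypoxia and glycolysis had a median of 0.41 in J1, with Ndrg1, Pfkp and Pgk1 of 16 higher (0.93, 0.58 and 0.36) and 0 lower, and sums of 34246 and 43135 in Rif1 shRNA cells, against 30457 and 32954 in controls. That count was 13 without J1 Rif1 shRNA array 1 and 0 on the values as deposited or with no intensity trend. The median was 0.67 without J1 Rif1 shRNA array 1 and 0.19 without array 2. In F1 that list was mixed, with 4 higher (Adm 0.87, Slc2a3, Ankrd37, Ndrg1) and 6 lower (among them Egln3 -0.90 and Bnip3 -0.91). Over all genes 16.0% were higher and 14.5% lower in F1. The actin 3′ to 5′ signal ratio, a measure of RNA integrity, was 2.18 and 2.17 in J1 Rif1 shRNA cells, against 2.71 and 2.61 in J1 controls. In F1 it was 1.33 and 1.33 in Rif1 shRNA cells, against 1.35 and 1.41 in controls. The part of the 3 hypoxia genes that passed and of this ratio in the J1 rise of Herpud1 was not tested.

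The genes whose 8 normalized values were most like those of Hspa5, once the mean of each line was taken off, were Lefty2 (Pearson r = 0.982), Prrg3 (0.979), Pcgf5 (0.978), Aamp (0.975), Inafm2 (0.974) and P4ha2 (0.974), among 4529 genes that passed in either line. Lefty2 encodes an inhibitor of Nodal signalling and P4ha2 an ER enzyme that hydroxylates collagen chains. Among the 10, r with Hspa5 was 0.84 for Calr, 0.80 for Pdia6, 0.68 for Sdf2l1, 0.67 for Pdia3, 0.53 for Herpud1, 0.44 for Pdia4, 0.37 for Hsp90b1, 0.17 for Dnajb9 and -0.43 for Xbp1. These values share the same 8 arrays and their scaling and are given as a description.

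Beyond the 10 genes, 15 measured genes had ERSE letters in their window, and 0 of them passed in J1. In F1, Syvn1, Creld2 and Dnajc3, a cochaperone of BiP, rose and Acacb fell, that is 3 higher of 15, where 16.0% of all genes were higher. Dnajc3 had a log2 fold change of 0.31 and Acacb one of -0.55 (limma adjusted p = 0.00562 and 0.000977). The median of the 15 was 0.02. Within the 10, the 4 genes with ERSE letters had F1 values of 0.18 to 0.31, and the 6 without them had -0.46 (Xbp1) to 0.47 (Pdia3), so the ranges overlapped.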

How the data were processed

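Total RNA (Trizol) of 8 cell samples was labelled with biotin and read on Affymetrix arrays, per the labels. The deposited intensity values, 1 for each probe set on each array, are linear MAS5 signals, per the submitters' processing notes, with the MAS5 version not given in the notes. No value was missing, and the lowest was 1. Their 2% trimmed means were 193 to 197 in J1 and 301 to 309 in F1. Quantile normalization of log2(signal + 18) therefore spanned both lines; 18 is the 10th percentile of all values, and this offset shrinks changes of dim genes. After 64 control probe sets were removed, a probe set was kept if at least 2 arrays had it above their 40th percentile. A single gene symbol was given for 34945 probe sets, several symbols for 932, and none here for 9160; 34741 matched the RefSeq gene table and 0 symbols changed. Kept probe sets with 1 symbol covered 14714 genes.

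Fits used limma 3.58.1 in R 4.3.3 (lmFit, eBayes with an intensity trend) on the 4 arrays of each line, since the median residual SD was 0.115 in J1 and 0.0657 in F1, and on all 8 for the difference. Residual degrees of freedom were 2, 2 and 4. All tests were two-sided. Python 3.11.15, pandas 2.3.3 and matplotlib 3.10.9 made the summaries and figures. Precision is limited by having 2 arrays in a group.

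The text names the 10 genes and Rif1 by every probe set, the 3 genes of each other list with the smallest p among those that passed in each line, and the 6 genes most like Hspa5. Other list genes named to complete a count of at most 5, and Dnajc3, Acacb and the further genes of the PERK and ATF4, chaperone and hypoxia lists, were named after their values were seen. The 10 genes, the lists and the rules were chosen with earlier results of these data known. Replicate numbers 1 and 2 are shared by the groups, but no label says that they mark a shared culture. Alternatives were other offsets, filters, scalings and spreads, a replicate block, averaged probe sets and each array left out, where a lone array is assumed to vary like the others.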

Additional observations from a re-analysis of the deposited data

Results flagged for a closer look

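The effect of the knockdown differed between F1 and J1 by a test of the difference itself (F1 effect minus J1 effect, log2, limma on all 8 arrays) at 6 probe sets of 4 genes. Pdia3 1423423_at had 0.46 and Dnajb9 1417191_at had 0.59, both higher in F1. Xbp1 had -0.57 at 1437223_s_at, -0.71 at 1420011_s_at and -0.76 at 1420886_a_at, and Herpud1 1448185_at had -0.39. The brightest Herpud1 probe set did not pass (-0.25, limma adjusted p = 0.255), and 1448185_at lost its call in 10 of 17 alternatives. None of the 6 passed without F1 Rif1 shRNA array 1.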

How the results depend on the processing

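The 10 genes' log2 fold changes and their calls were recomputed under other offsets, filters, scalings and variance models and with each array left out. Of the 22 probe sets, the number called in J1 (1) was 0 with no intensity trend, 2 with 1 spread over 8 arrays, and 0 to 3 with an array left out. All probe sets called in J1 (254) numbered 146 on the values as deposited, 25 with no trend, 1005 with 1 spread and 210 to 1019 with an array left out. The F1 count of 15 ranged from 8 to 15, and the F1 total of 8140 from 4135 to 8161, with an array left out; with 1 spread they were 10 and 4753, and the count was 10 with no trend. Genes called higher in F1 (8) numbered 5 with no trend and 6 with 1 spread. The 6 differences numbered 2 with no trend and 0 to 7 with an array left out, and the 2634 over all probe sets ranged from 1010 to 3995. Array 1 of F1 Rif1 shRNA gave the lowest F1 and difference counts. Values that changed sign were small: the difference for Hspa5 was -0.041 with its probe sets averaged and -0.022 to 0.10 with an array left out, and Pdia3 in J1 was -0.073 with its probe sets averaged and -0.036 to 0.039 with an array left out. With an array left out, J1 values ranged from -0.086 to 0.0037 for Hsp90b1, -0.18 to 0.089 for Pdia4, -0.12 to 0.26 for Sdf2l1 and -0.0012 to 0.23 for Xbp1. Whether the replicate numbers pair the samples is not settled by the labels or by these values. The correlation of same-numbered deviations was -0.339 in J1 and 0.194 in F1. With the replicate block 2 of the 22 probe sets were called in J1 (756 in all), 15 in F1 (10089 in all) and 5 for the difference (1705 in all). Crossing the numbers in J1, an alternative chosen after seeing the data, gave 3 replicate block calls of the 22 and 1612 in all. Of the single-gene values under the alternatives, 627 kept direction and call, 49 lost the call, 5 gained it and 12 changed sign; the cause was not tested. Low signal limits 1430983_at and 1420012_at, brighter than only 9.0% and 21.5% of the kept probe sets.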
